A study of Drosophila melanogaster with 2 samples.

Results

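The genes described here run the cell division cycle and copy the DNA in Drosophila melanogaster, and the question was where CG10147, a predicted zinc finger protein, lay relative to them. The 38 genes were taken by symbol from the FlyBase annotation, all were found, and they are 38 of 13945 protein-coding genes on the 6 chromosome arms. By role they comprised 16 genes of origin licensing and the replication fork, 5 genes of E2F and Rb factors, 10 genes of cyclins, their kinases and an inhibitor, and 7 mitotic regulators. Binding was mapped by ChIP-seq in 2 libraries, biological replicates 2 and 3, from whole mixed-sex embryos aged 0 to 24 hours. The labels describe the antibody as one against GFP, while their antibody field names CG10147. The flies were a stable transgenic line with GFP at the carboxyl end of CG10147, and both libraries came from this 1 line with no other genotype, treatment or stage. Embryos of all ages and all cell types were pooled, so a peak cannot be placed in dividing or in resting cells.

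Replication origins are licensed when the origin recognition complex, Cdc6 and the Cdt1 protein (dup in the fly) load the ring-shaped MCM helicase onto DNA. E2F with its partner Dp turns on S phase genes and is held back by the Rb proteins, which cyclin-dependent kinases inactivate. Mitosis is then entered when the string phosphatase activates Cdk1 with its cyclins, and it is left when the anaphase-promoting complex, helped by fzy and fzr, destroys them. In the fly embryo the earliest nuclear divisions run on maternal products, and later divisions are timed by transcription of stg, with dap and Rbf among the genes that end division.

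At promoters, 11 of the 38 genes had a summit within 500 bp of an annotated transcription start site (TSS) in the list of 4576 peaks thresholded by reproducibility between replicates (IDR list). They were Mcm2, Mcm5, Orc2, dup, E2f1, Dp, Cdk1, dap, fzy, fzr and aurA. This is 28.9% of the genes, against 20.3% of all protein-coding genes counted the same way. The genes of a pathway are not replicates and share peaks with their neighbours, so no test was made of these shares. The count fell to 6 when each summit was given only to the gene of its nearest TSS, to 7 with a window of 200 bp and to 5 among the strongest 2288 peaks.

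The IDR list was exactly the head of the pooled list by signal, ending at a signal of 144.6, so it is a cut by strength, and it shares its reads with both replicate lists. Each library's own list and the pooled list held 30000 peaks. Signals are the authors' peak caller values, comparable only within a list, and ranks by signal are therefore given for each list. The peak lists give no read depth, so it is unknown here. Coordinates are 1-based on dm6.

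Counted over the other lists, 26 of the 38 genes had a promoter summit in the pooled list (68.4%, against 44.8% of protein-coding genes), 26 in replicate 2 (68.4%, against 47.3%) and 24 in replicate 3 (63.2%, against 46.2%). In both replicate lists it was 22 (57.9%, against 39.3%). Of the 26 pooled genes, 15 were outside the IDR list (39.5% of the 38, against 24.5%). In all 4 lists the count was 9 (23.7%, against 19.6%), because Mcm2 and Mcm5 each lacked a replicate. A further 2 genes, CycB3 and twe, had a summit in a replicate list but not in the pooled one, and 10 had none in any list.

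When each replicate list was cut to its strongest 4576 peaks, 10 of the 38 genes (26.3%) had a promoter summit in each of them, against 20.6% of protein-coding genes in both cases. In replicate 3 these included CycA and not Mcm2 or fzy, and in replicate 2 CycB3 and CycG and not Mcm5, Orc2 or dap. The median pooled rank of the strongest promoter summit was 4959 for the 26 genes and 5175 for all 6253 protein-coding genes with one. Within the IDR list the medians were 2582 for the 11 genes and 1902 for all 2836 with one.

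The letters under the summits are shown for the strongest IDR peak of 7 genes described next. They are given on the plus strand of the Release 6 assembly (RefSeq), cut back where an annotated exon began. They serve as examples, and the gene counts do not rest on them. Windows read in the same way for fzr, CycG and fzy held neither of the words marked below and are not printed. The 7 printed windows therefore do not give the share of windows with a word. Capitals mark AAAATAT or its reverse complement, an AT-rich word searched because an earlier pass over all peaks of these data had turned it up, and TATCGATA, the recognition site of the promoter factor Dref.
CycE (chr2L:15747096-15747296, summit at base 101 of 201): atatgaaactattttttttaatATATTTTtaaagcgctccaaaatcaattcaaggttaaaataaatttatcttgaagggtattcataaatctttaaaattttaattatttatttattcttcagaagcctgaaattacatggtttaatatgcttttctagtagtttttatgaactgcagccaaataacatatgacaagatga
Mcm2 (chr3R:8264580-8264780, summit at base 101 of 201): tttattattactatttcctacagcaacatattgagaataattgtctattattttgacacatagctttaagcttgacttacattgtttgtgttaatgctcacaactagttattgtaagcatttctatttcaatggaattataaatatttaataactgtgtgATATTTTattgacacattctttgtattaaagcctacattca
Mcm5 (chr3R:10788227-10788392, summit at base 66 of 166): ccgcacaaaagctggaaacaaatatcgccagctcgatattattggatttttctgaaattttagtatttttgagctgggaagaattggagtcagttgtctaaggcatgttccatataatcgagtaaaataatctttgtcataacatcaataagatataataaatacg
Orc2 (chr3R:13964675-13964875, summit at base 101 of 201): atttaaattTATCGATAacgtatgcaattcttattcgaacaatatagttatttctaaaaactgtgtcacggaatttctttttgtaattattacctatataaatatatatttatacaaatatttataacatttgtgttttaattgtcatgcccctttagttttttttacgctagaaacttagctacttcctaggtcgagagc
Cdk1 (chr2L:10386396-10386596, summit at base 101 of 201): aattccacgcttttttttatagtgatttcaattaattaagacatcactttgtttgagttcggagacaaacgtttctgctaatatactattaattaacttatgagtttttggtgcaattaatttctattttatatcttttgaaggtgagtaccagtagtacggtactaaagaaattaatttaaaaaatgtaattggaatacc
aurA (chr3R:11962806-11962991, summit at base 86 of 186): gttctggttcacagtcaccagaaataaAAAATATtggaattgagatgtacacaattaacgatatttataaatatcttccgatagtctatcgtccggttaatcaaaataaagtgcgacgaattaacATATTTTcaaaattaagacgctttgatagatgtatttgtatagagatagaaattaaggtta
E2f1 (chr3R:21627854-21628054, summit at base 101 of 201): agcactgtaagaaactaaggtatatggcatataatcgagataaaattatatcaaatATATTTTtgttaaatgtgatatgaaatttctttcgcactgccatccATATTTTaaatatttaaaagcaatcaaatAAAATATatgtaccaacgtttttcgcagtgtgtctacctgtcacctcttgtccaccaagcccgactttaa

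All of these windows came from sequence outside annotated exons. Over 301 bp around each of the 22 IDR summits at promoters or in gene bodies of the 38 genes, the median GC content was 33.9% (range 25.2% to 51.5%), against 35.9% over all 4576 IDR summits. AAAATAT occurred on either strand in 8 of the 22 windows (36.4%), against 37.0% of all IDR windows. TATCGATA occurred in 1 of 22, the Orc2 window printed above, against 5.75% of all IDR windows and 10.4% of the 2424 at promoters. Of 3 spellings of the E2F recognition site that were searched on both strands, TTTCCCGC, TTTGGCGC and TTTCGCGC, the windows of these genes held TTTGGCGC at dup only, in 1 of 22. All IDR windows held them in 1.09%, 1.75% and 1.14%. With so few windows, these shares describe the letters and nothing more.

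**Figure D1:**
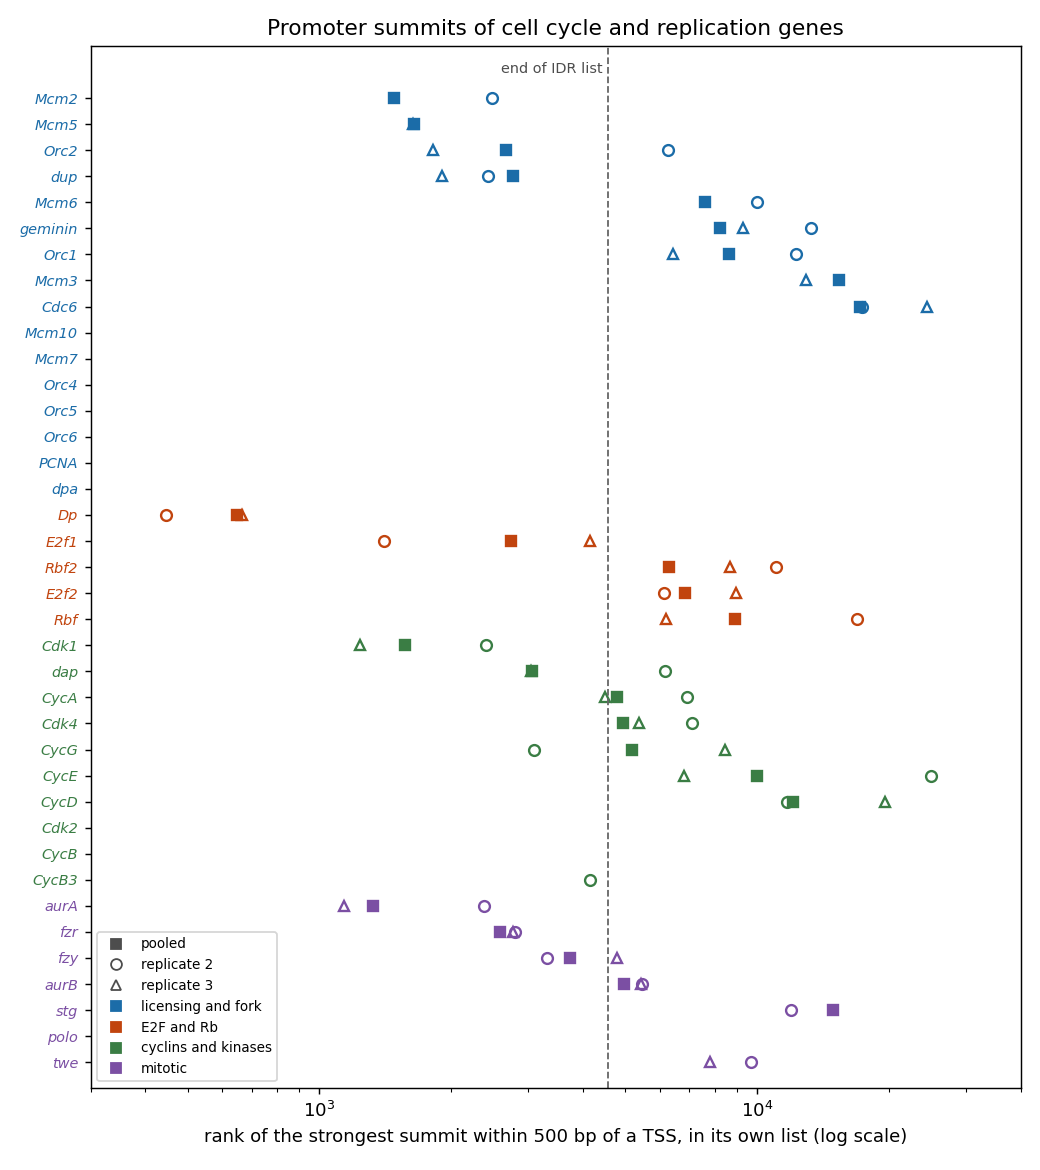
Rank by signal of the strongest summit within 500 bp of a TSS for each of the 38 genes, on a log axis, in the pooled list (filled squares), the replicate 2 list (open circles) and the replicate 3 list (open triangles). Colours are the 4 roles and the dashed line is the end of the IDR list at rank 4576. Dp, Cdk1, dup, E2f1, fzr and aurA lie to the left of it in all 3 lists, and 10 genes have no symbol.

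Among the licensing and fork genes, 4 of 16 had an IDR promoter summit, 5 more had one in the pooled list past the end of the IDR list, and 7 had none in any list. The IDR share was 25.0% against 20.3% of protein-coding genes, and the pooled share of 9 of 16 was 56.2% against 44.8%. In each replicate list 7 of 16 had one (43.8%), which is below the 47.3% and 46.2% of protein-coding genes in replicates 2 and 3. Of the 6 genes of the MCM ring, Mcm2 and Mcm5 had IDR summits. Mcm2 (FBgn0014861) had a pooled signal of 302.4 at rank 1479 (3R, 8264581 to 8264710), and in replicate 2 a signal of 94.4 at rank 2479. Replicate 3 had no summit there, the nearest to the Mcm2 TSS lying 3287 bp away. The Mcm2 summit thus had a partner in 1 of the 2 libraries.

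The site near Mcm2 lay between the start sites of a pair of replication genes. Its summit was 290 bp upstream of Mcm2 and 229 bp upstream of RPA1, which encodes the large subunit of the single-stranded DNA binding protein RPA and is read the other way. The TSSs of the pair are 519 bp apart.

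Mcm5 had the opposite replicate pattern. Its summit lay 232 bp upstream of the gene (FBgn0017577, 3R, 10788100 to 10788483) with a pooled signal of 281.4 at rank 1645, and a replicate 3 rank of 1639 with a signal of 180.1. In replicate 2 the nearest summit to the Mcm5 TSS was 4254 bp away. The summit was only 66 bp from the TSS of the divergent neighbour Art1, a protein arginine methyltransferase gene.

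The other ring subunits were weakly marked or not marked. Mcm6 ranked 7595 in the pooled list and 10020 in replicate 2, and had no summit in replicate 3. Mcm3 ranked 15384 in the pooled list and 12948 in replicate 3, and had none in replicate 2. The genes dpa (encoding Mcm4) and Mcm7 had no promoter summit in any list. The closest IDR summit to an Mcm7 TSS was 29309 bp away.

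Of the 5 listed subunits of the origin recognition complex, Orc2 (FBgn0015270) had an IDR promoter summit. At 1 of 5, the share was near that of all protein-coding genes (20.3%). The Orc2 summit lay 110 bp upstream (3R, 13964583 to 13964966), with a pooled signal of 208.2 at rank 2672. In replicate 2 the signal was 55.0 at rank 6259 and in replicate 3 it was 167.7 at rank 1818, so the libraries differed in how strongly this site ranked. Orc1 had weaker summits in all of the 3 longer lists, at ranks 8621, 12289 and 6425 in the pooled, replicate 2 and replicate 3 lists. Orc4, Orc5 and Orc6 had none, and neither did Orc3, a subunit gene outside the 38. Orc5 lay 5614 bp from an IDR peak at rank 39 that belongs to another site.

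Of the MCM loading genes, dup stood apart from Cdc6 and geminin. Its promoter (FBgn0000996) carried 2 IDR summits, 113 bp upstream of an internal TSS inside a dup exon and 284 bp upstream of the first TSS (2R, 15380535 to 15380918 and 15381205 to 15381357), with pooled signals of 202.8 and 179.0. Both summits had a partner within 100 bp in each replicate, with signals of 62.4 and 95.4 at ranks 5113 and 2431 in replicate 2 and 163.0 and 102.3 at ranks 1910 and 3787 in replicate 3. A further summit, 12 bp downstream of the first TSS, ranked 4625 with a signal of 143.5, just past the end of the IDR list. The summit in the exon was 3 bp from the TSS of SRPK, a kinase gene read from the opposite strand.

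The inhibitor of dup, geminin, and the loader Cdc6 carried weak summits. For geminin the ranks were 8246 in the pooled list, 13318 in replicate 2 and 9273 in replicate 3. For Cdc6 they were 17146, 17368 and 24398. PCNA, the sliding clamp of the fork, and Mcm10 had no promoter summit in any list. The IDR summit closest to PCNA lay 1125 bp upstream, at rank 1649, and is the promoter peak of its neighbours plu and RpS18.

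The E2F and Rb genes had promoter summits throughout the 3 longer lists. All 5 had one in the pooled list and in each replicate list, and 2, Dp and E2f1, had one in the IDR list (2 of 5, against 20.3% of protein-coding genes). Over all protein-coding genes 44.8% had a promoter summit in the pooled list, 47.3% in replicate 2 and 46.2% in replicate 3. With 5 genes this is a description of those genes, and no test was made. Of the 5, 4 had a divergent neighbour, against 29.6% of protein-coding genes. E2f1 had 5 TSSs and Dp 3, each with its own window. Counted at the gene's 5' end only, E2f1 had no IDR promoter summit.

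Dp, the DNA-binding partner of the E2F proteins, held the strongest promoter peak of the 38 genes. The summit lay 220 bp upstream of an internal TSS of the gene (FBgn0011763) and in an intron (2R, 13223240 to 13223501), with a pooled signal of 482.7 at rank 647. Its partner was at rank 447 in replicate 2 (signal 228.6) and at rank 917 in replicate 3 (signal 256.4). The site was thus among the strongest 1144 peaks in each library. Its pooled summit lay in a soft-masked repeat.

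Dp had 2 further IDR summits. The stronger of these was 471 bp downstream of the same internal TSS, close to the edge of the window, with a pooled signal of 408.8 at rank 891, 116.9 at rank 1664 in replicate 2 and 304.5 at rank 665 in replicate 3. It was nearer to the TSS of lncRNA:CR43918, at 400 bp. A weaker summit at rank 4448, just inside the IDR list with a signal of 147.2, lay 50 bp upstream of the first TSS, between Dp and the divergent gene Fsn, and its replicate signals were 82.1 at rank 3190 and 71.3 at rank 6493.

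E2f1, the activating E2F (FBgn0011766), had 4 IDR summits, all inside the gene. Its promoter summit lay 101 bp downstream of an internal TSS (3R, 21632876 to 21632975) with a pooled signal of 204.4 at rank 2744. The nearest summit was 56 bp away in replicate 2, with a signal of 127.9 at rank 1403, and 132 bp away in replicate 3, with 95.6 at rank 4150. The repressive E2f2 and the Rb genes had weaker promoter summits, at pooled ranks of 6834 for E2f2, 6292 for Rbf2 and 8927 for Rbf. The replicate 2 ranks of these were 6136, 11058 and 16912, and the replicate 3 ranks 8932, 8665 and 6191.

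**Figure D2:**
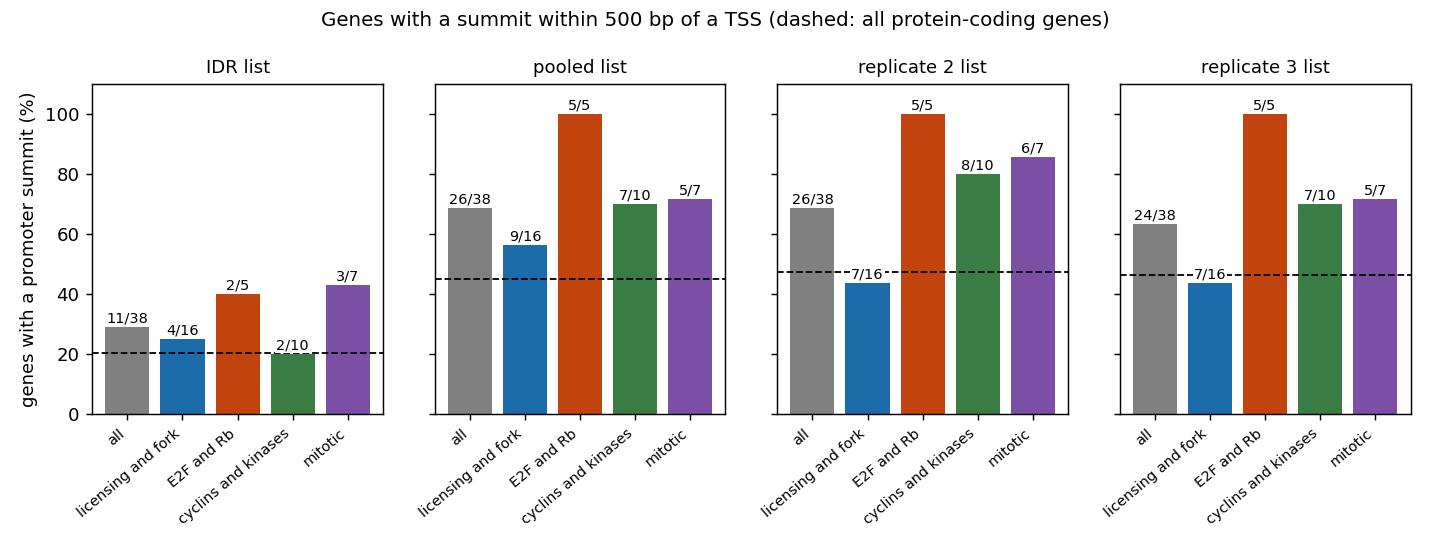
Percentage of genes with a summit within 500 bp of a TSS in each of the 4 lists, for all 38 genes and by role, with the counts above the bars and the share of all protein-coding genes as a dashed line. The E2F and Rb bar stands at 5 of 5 in the 3 longer lists, and the licensing and fork bar at 7 of 16 in each replicate list.

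Of the 10 genes of cyclins, their kinases and the inhibitor, 2 had a promoter summit in the IDR list (20.0%, against 20.3% of protein-coding genes). They were the kinase gene Cdk1 and the inhibitor gene dap. None of the 6 cyclin genes had one, and no test was made of that count. Cdk1 (FBgn0004106), the kinase of mitotic entry, had a summit 234 bp upstream (2L, 10386304 to 10386687). The pooled signal was 289.0 at rank 1567, with 96.0 at rank 2408 in replicate 2 and 216.0 at rank 1235 in replicate 3, so the site was well inside the strongest 4576 peaks of each library. The summit was nearer, at 166 bp, to the TSS of mRpS7, a mitochondrial ribosomal protein gene 400 bp from Cdk1 on the opposite strand.

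The gene dap encodes the inhibitor of CycE with Cdk2 that stops division in the embryonic epidermis. Its summit lay 199 bp upstream (2R, 9711930 to 9712313) with a pooled signal of 190.0 at rank 3063, no opposite-strand start within 1000 bp upstream, and in replicate 3 a signal of 118.9 at rank 3052. Replicate 2 placed its strongest promoter summit 79 bp upstream with a signal of 55.5 at rank 6172, which is 120 bp from the IDR summit.

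CycA, CycG and the kinase gene Cdk4 sat just past the end of the IDR list. The mitotic and S phase cyclin gene CycA had a summit 12 bp downstream of its TSS at rank 4790 of the pooled list with a signal of 140.2. The nearest summit to it ranked 10028 in replicate 2, with a signal of 40.1, and 4493 in replicate 3. A stronger replicate 2 summit, at rank 6920, lay 214 bp downstream of the TSS. Cdk4 at pooled rank 4941 and CycG at 5180 followed. CycD, the partner of Cdk4, ranked 12065, and CycB3 had a summit in replicate 2 alone, at rank 4148. CycB and Cdk2 had no promoter summit in any list, although CycB held a weak one inside the gene at pooled rank 13190, and the closest IDR summit to a Cdk2 TSS was 86386 bp away.

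The strongest IDR peak at any of the 38 genes lay in CycE, which encodes the cyclin of S phase entry, but outside the promoter window. Its summit was in an intron, 586 bp upstream of an internal TSS and 954 bp from the 5' end of the gene (2L, 15747123 to 15747352). The pooled signal was 626.4 at rank 386, with rank 707 in replicate 2 (signal 182.5) and rank 299 in replicate 3 (signal 459.4). The summit lay in a soft-masked repeat. The CycE promoter windows themselves held only weak summits, the best at pooled rank 9996. It and the Cdk4 summit 572 bp upstream were the nearest outside the 500 bp window, and the Dp summit at 471 bp and the fzr summit at 404 bp were the nearest inside it. A window of 1000 bp added CycE and Cdk4 to the IDR count, which then stood at 13.

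**Figure D3:**
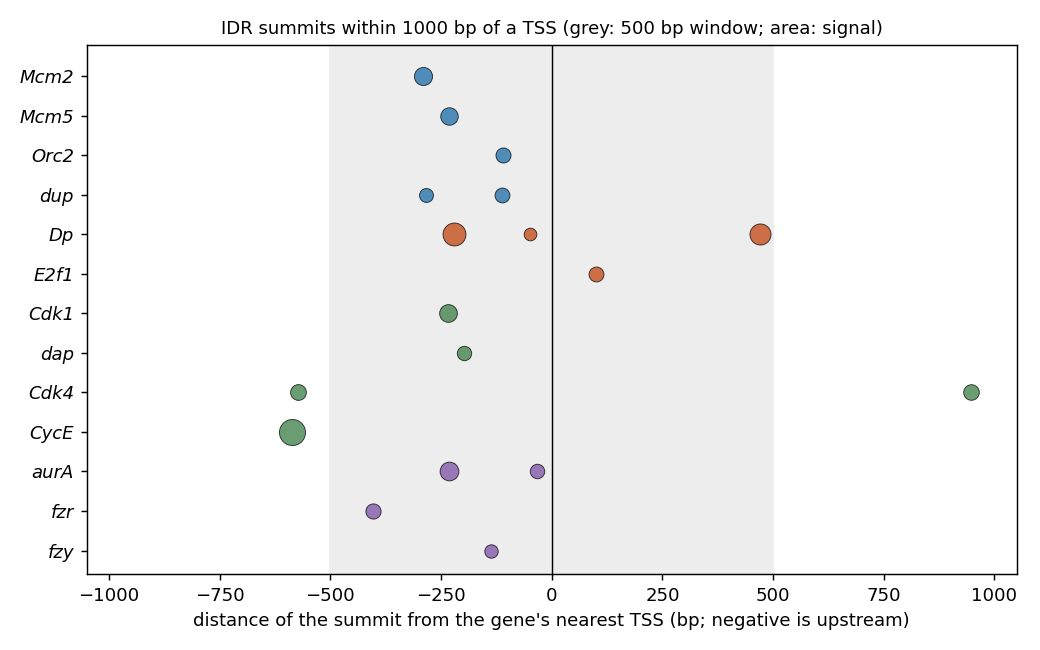
Distance in bp of each IDR summit from the nearest TSS of its gene, for summits within 1000 bp, with the 500 bp window in grey and circle area in proportion to signal. Most circles lie between -404 and -33 bp, and the largest, CycE at -586 bp, lies outside the window.

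Among the mitotic regulators, 3 of 7 had an IDR promoter summit (42.9%, against 20.3% of protein-coding genes), and each of the 3 had one in all 4 lists (against 19.6%). The gene aurA (FBgn0000147), which encodes the spindle pole kinase, had 2 summits, 233 bp and 33 bp upstream (3R, 11962699 to 11963082 and 11962899 to 11963282). The stronger had a pooled signal of 324.1 at rank 1324, with 96.5 at rank 2383 in replicate 2 and 228.1 at rank 1137 in replicate 3. It was 86 bp from the TSS of the divergent gene CG3281, and the weaker was nearest to aurA itself. The weaker had signals of 193.3, 72.6 and 88.8 at ranks 2984, 3984 and 4695 in the pooled, replicate 2 and replicate 3 lists.

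The activators of the anaphase-promoting complex, fzy and fzr, were both marked. The fzr summit lay 404 bp upstream (X, 4679749 to 4680132) with no opposite-strand start within 1000 bp upstream. Its signal was 212.2 at rank 2582 in the pooled list, 88.3 at rank 2802 in replicate 2 and 127.4 at rank 2767 in replicate 3, close to the same place in each. The fzy summit, 136 bp upstream (2L, 16310628 to 16311011), had signals of 165.5, 80.1 and 87.7 at ranks 3745, 3320 and 4777 in the same order, and lay 94 bp from the divergent gene cni.

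The other mitotic genes were weaker. aurB, the kinase of the chromosomal passenger complex, had a summit 183 bp upstream in all 3 longer lists within 2 bp, at ranks 4977, 5464 and 5443. It missed the IDR list by about the same margin as CycA and Cdk4. The phosphatase genes stg and twe had weak summits. For stg the pooled rank was 14943 and the replicate 2 rank 11928, with none in replicate 3. For twe the replicate ranks were 9704 and 7800, with no summit in the pooled list. polo, a kinase gene of mitosis, had none in any list.

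Genes with a divergent neighbour had an IDR promoter summit at a higher share than the others, here and over all protein-coding genes, and no test was made of this. Such a neighbour starts on the other strand no more than 500 bp upstream. Of the 38 genes, 16 had one (42.1%), against 29.6% of protein-coding genes, so the 38 held a larger share of divergent genes. An IDR promoter summit was found at 7 of the 16 (43.8%), against 36.7% of all divergent protein-coding genes. Among the 22 others it was 4 (18.2%), against 13.4%. These were Mcm2, Orc2, fzr and dap. The Mcm2 and Orc2 summits also lay between opposite-strand starts, 519 bp apart for Mcm2 and RPA1 and 711 bp for Orc2 and Kots, past the 500 bp limit. The neighbours of the 7 divergent genes with a summit were Art1, SRPK, Fsn, mRpS7, cni and CG3281, and for E2f1 the noncoding genes asRNA:CR46055 and lncRNA:CR46056. Of 15 IDR promoter summits, 9 were nearer to a TSS of another gene than to the gene counted here. No share over all protein-coding genes is given for this count, so it cannot be read as particular to these genes. A peak between a pair of starts was counted for each gene within 500 bp.

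Summits at these promoters sat on the upstream side in 13 of 15 cases, with a median of -199 bp. Over 3181 pairs of a summit with a protein-coding gene, 82.9% were upstream and the median was -133 bp. Of the 22 IDR summits at promoters or in gene bodies, 18 (81.8%) had a summit within 100 bp in each replicate list, against 90.0% of all IDR summits. The exceptions were the summits at Mcm2, Mcm5, dap and the E2f1 promoter. Of the 22, 3 were among the strongest 1144 of the 4576 IDR peaks, 1 at CycE and 2 at Dp. This is a smaller share than the 1144 make up of the IDR list.

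Inside genes, IDR summits were found in 6 of the 38 (15.8%, against 12.2% of protein-coding genes), namely E2f1, Dp, CycE, CycG, Cdk4 and dup. A gene body is the annotated span of the gene, so long genes have more room for a summit, and spans ran from 1028 bp for Orc6 to 40568 bp for E2f1. Without sequence within 500 bp of the genes' own TSSs, 4 remained (10.5%, against 7.35%): E2f1, CycE, CycG and Cdk4. In the pooled list 15 genes had a gene body summit (39.5%, against 31.3%).

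E2f1 had the most. Its pooled summits numbered 26 over 40568 bp, or 0.64 per kb, against 0.22 per kb over the 6 chromosome arms, and 4 of them were in the IDR list. The strongest intronic summit (3R, 21627850 to 21628028) had a signal of 285.3 at rank 1601, above that of the E2f1 promoter summit, and ranked 1349 and 2277 in replicates 2 and 3. Another, 3427 bp downstream of a TSS, ranked 1794, 3597 and 1781 in the pooled, replicate 2 and replicate 3 lists. The weakest of the set, at rank 3934, lay 3039 bp from the TSS of lncRNA:CR46056, the nearest one.

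**Figure D4:**
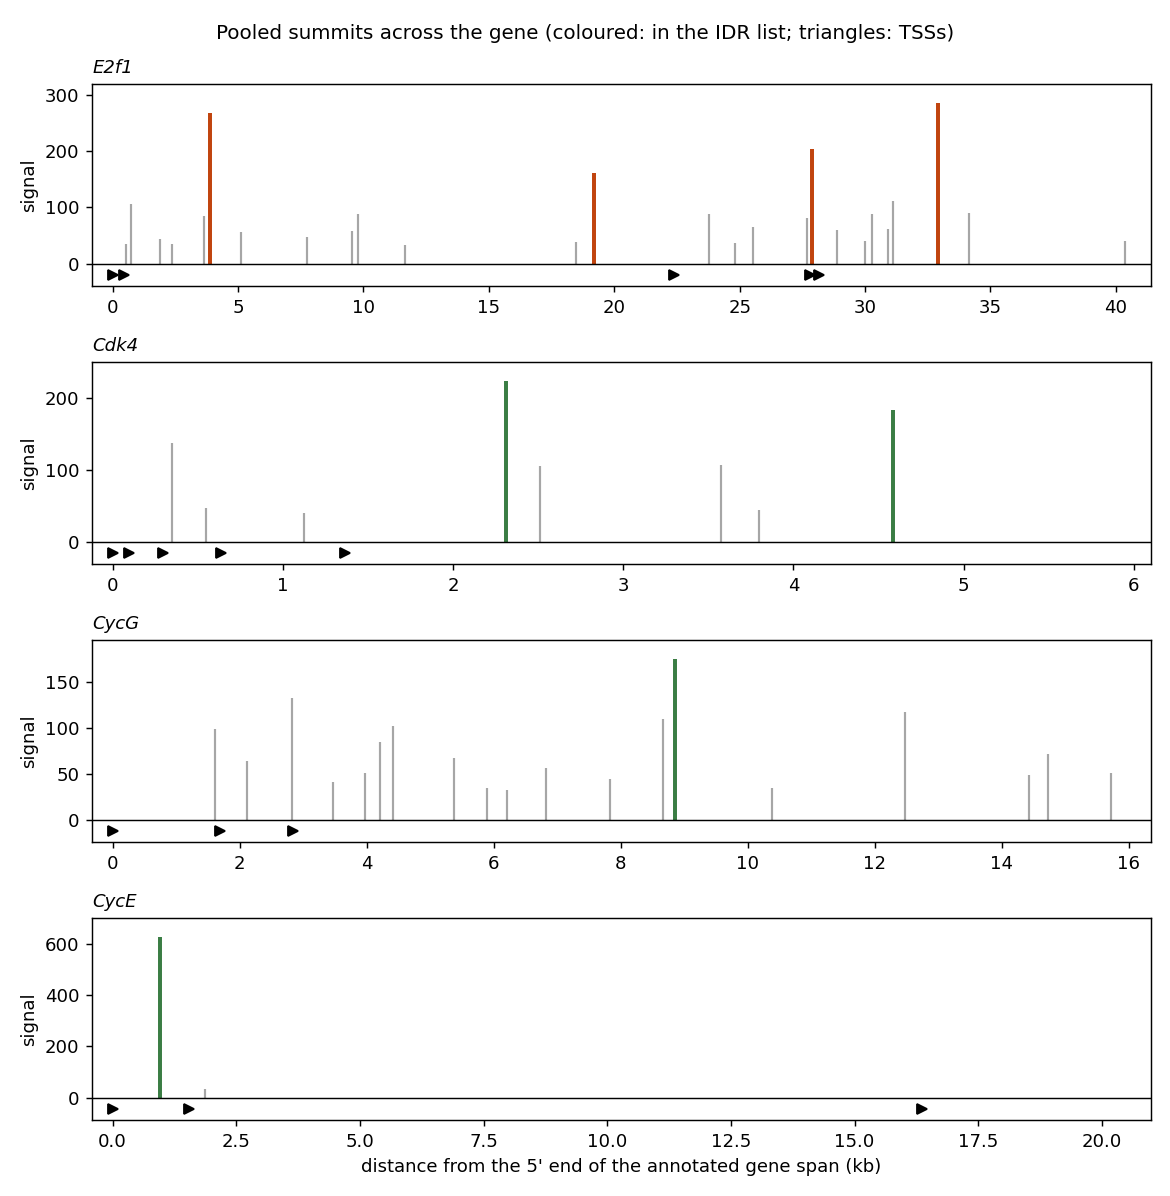
Signal of each pooled summit against its distance in kb from the 5' end of the annotated gene for E2f1, Cdk4, CycG and CycE, with summits of the IDR list coloured and TSSs as triangles. E2f1 and CycG carry many summits along the gene, and CycE carries 1 tall summit near its 5' end and 1 weak one.

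The long cyclin genes differed from each other. CycE, over 20570 bp, held 2 pooled summits in its span (0.10 per kb), the strong intronic one and another at rank 29505. CycG, over 16023 bp, held 19 (1.19 per kb), of which only the one 6012 bp downstream of a TSS reached the IDR list, at rank 3464, with ranks of 2633 and 4299 in replicates 2 and 3. Cdk4, over 5979 bp, held 8 (1.34 per kb). Its IDR summits were 947 bp and 3222 bp downstream of a TSS, at ranks 2360 and 3207, and a further one outside the gene lay 572 bp upstream at rank 2279. The 3222 bp site was 686 bp from the TSS of asRNA:CR44375. fzr, over 12248 bp, held 8 pooled summits, none of them in the IDR list. The 16 licensing and fork genes, with a median span of 2671 bp, had no IDR summit inside the gene away from their promoters. Over all protein-coding genes only 7.35% had one, so with 16 genes this is a description only. The 7 mitotic regulators also had none.

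A further 108 genes were listed for a function in replication or the cell cycle, or as cyclins, kinases and their partners. The last class holds genes not limited to cell division, such as the transcription kinase gene Cdk12. An IDR promoter summit was present at 32 (29.6%, against 28.9% of the 38 and 20.3% of protein-coding genes). A pooled one was present at 62 (57.4%, against 68.4% of the 38 and 44.8% of protein-coding genes). By class the IDR counts were 9 of 33 for replication, 1 of 6 for E2F, Rb and Myb complexes (mip130), 5 of 19 for cyclins, kinases and their partners, and 17 of 50 for mitosis and checkpoints.

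The strongest peaks of this wider set lay at genes of several steps. Ctf4, which links the helicase to the polymerase, had a signal of 591.0 at rank 430, with ranks of 455 and 422 in replicates 2 and 3. Cdc16, a subunit of the anaphase-promoting complex, ranked 315, with 373 and 328 in the replicates, at a promoter shared with the germline gene orb. tum, a cytokinesis gene, ranked 642, with 938 and 589 in the replicates, and shared its promoter with Uba3. Cdk12, a transcription kinase gene, ranked 815, with 1279 and 676 in the replicates, at a promoter shared with SAK. These promoter peaks were stronger than that of any licensing gene among the 38. In the pooled list Ctf4 and Cdc16 were above Dp, and tum was about level with it (signals of 483.8 and 482.7). In replicate 2 Dp, at rank 447, stood above Ctf4 and tum.

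Partners of the same complex were not all marked, in examples picked after their values were seen. An IDR promoter summit was present at 29.6% of the 108 genes and at 20.3% of protein-coding genes. Of the kinase that fires licensed origins, both the catalytic subunit Cdc7 (rank 1611) and its activator chif (rank 2703) had IDR promoter summits. Of the GINS complex, Psf1 (rank 2528) and Psf3 (rank 4545) had one and Psf2 and Sld5 did not. Of the chromosomal passenger complex, Incenp (rank 2482) and Det (rank 4123) had one, aurB stood just past the end of the list, and borr had none in it. Gnf1, RfC3, RfC4 and RfC38 had none in the IDR list. Of RPA1, RPA2 and RPA3 only RPA1 had one, the peak also counted for Mcm2.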

How the data were processed

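ChIP-seq peaks were deposited for 2 libraries (biological replicates 2 and 3) of CG10147-GFP embryos, with chromatin sonicated to 200 to 800 bp, per the labels. Per the file lists deposited with them, peaks on dm6 were called against a control, on each library alone and on the pool of both, and the IDR list was made from these. For the aligner and the peak caller, names are not given in the sources used here. Control reads were not analysed here. The peak signal values are as the authors deposited them, in their caller's unit, and the −log10 q values deposited beside them share a maximum of 4.13 in the pooled list (6710 peaks), so the signal was used for ranking.

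The FlyBase annotation (Ensembl release 115) gave genes, TSSs and exons. Sequence letters were read from RefSeq's Release 6 genome, numbered as dm6 is, and no peak ran past an arm's end. A promoter summit lay within 500 bp of any TSS of the gene. A gene body was the annotated span. Summits in different lists were matched within 100 bp. Counting was done in Python 3.11.15 and tested on simulated summits. No test was made, since there is a single condition and genes are not replicates. Members were named by a rule: each is accounted for, with signals and ranks by list where it had an IDR promoter summit. The members and lists were chosen with earlier results of these data known. The 108 other genes were listed by function, 3 of them matched through an alternative symbol, and those named were picked after their values were seen. Alternatives changed the window, the overlap rule, the strength cut, the TSS rule, repeats and the replicate used.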

Additional observations from a re-analysis of the deposited data

How the results depend on the processing

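The count of 11 genes with an IDR promoter summit became 7 with a TSS window of 200 bp (Mcm2, Mcm5, Cdk1 and fzr were lost), 5 among the strongest 2288 peaks and 6 when a summit counted only for the gene of its nearest TSS (Mcm2, Mcm5, dup, Cdk1 and fzy were lost). Between 8 and 13 genes were counted under the other alternatives, which were a window of 1000 bp, overlap of the peak region, the gene's 5' end only, no summits in soft-masked repeats (E2f1, Orc2 and fzy were lost) and the strongest 4576 peaks of either replicate alone. Soft-masked repeats also held, among others, the strongest summits of CycE and Dp and the E2f1 summits at ranks 1601 and 1794. The count of 6 genes with an IDR summit in the gene body became 10 by overlap of the region and 3 among the strongest 2288 peaks. Cutting the replicate lists to 4576 peaks took the 26 genes of replicate 2 to 10 and the 24 of replicate 3 to 10. By role, licensing and fork genes fell from 4 to 2 with the 200 bp window, and ranged from 2 to 3 with a replicate left out. Cyclins, kinases and the inhibitor went from 2 to 1 with the 200 bp window and to 4 with 1000 bp, where CycE and Cdk4 entered. Except where the replicate lists were cut, no share of all protein-coding genes under the same setting stands beside these alternative counts. They show only how far the counts moved. Groups of 5 to 16 genes move by large shares with a single gene, and the unknown read depth gives no interval for any signal.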

Other observations

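The upstream flank of stg, which is known to hold long arrays of enhancers for its embryonic expression, had no IDR summit in the 40 kb before the gene. The IDR list held 0.034 summits per kb over the chromosome arms, and 1 summit in the same flank of each of CycE and E2f1. The absence at stg is therefore not read as particular to it. In the stg flank the pooled list held 13 summits, or 0.33 per kb against 0.22 per kb over the arms. Each replicate list held 8 there, or 0.20 per kb against 0.22 per kb. The closest IDR summit to a stg TSS was 35198 bp away on the downstream side. This flank was chosen after the values of stg had been seen.

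Some genes with no IDR promoter summit lay within a few kb of strong IDR peaks of other sites. CycB lay 3333 bp from a peak at rank 79, Orc4 lay 3750 bp from one at rank 163, and CycG, whose own strongest promoter summit ranked 5180 in the pooled list and 3086 in replicate 2, lay 3513 bp from one at rank 162 with a signal of 956.0. None of these peaks was within 500 bp of a TSS of the gene named, and they were not counted for it.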
